A study of Mus musculus and Acomys cahirinus with 16 samples.

Results

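Transcripts of 10 genes of the AP-1 transcription factor family were followed in skin of 2 rodents, the laboratory mouse Mus musculus and the African spiny mouse Acomys cahirinus. The members were taken by symbol: Fos, Fosb, Fosl1 and Fosl2 of the Fos subfamily, Jun, Junb and Jund of the Jun subfamily, and the related factors Atf3, Batf and Maff. All 10 were found once in each count table, among 56980 genes of the mouse table and 19818 of the spiny mouse table. Polyadenylated RNA of whole skin was sequenced in 16 samples, 4 of untreated and 4 of DMBA/TPA-treated skin of each species. DMBA is a carcinogen that forms DNA adducts, and TPA is a phorbol ester that activates protein kinase C and promotes the outgrowth of mutated epidermal cells. No allele, transgene or other agent is named for any group, and strain, sex, age, dose and time of sampling are not given in the sources used here. Whether the treated samples were tumours or treated skin without them is not stated either. Irradiated fibroblasts are what the series' design text speaks of, but its title and every sample label name skin, and the grouping follows the labels. The labels do not say that replicates came from separate animals, so p-values measure the spread between these samples, which may be technical.

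AP-1 is a dimer of basic leucine zipper (bZIP) proteins. Jun proteins pair with each other or with Fos proteins and bind the TPA response element, a site named after its response to the phorbol ester used here. Phorbol ester signalling runs through protein kinase C and MAP kinases, which raise transcription of the Fos and Jun genes and phosphorylate their products. In epidermis AP-1 is known for its part in keratinocyte proliferation and differentiation and in skin tumour promotion. Fos, Fosb, Jun and Junb are immediate-early genes, whose transcripts rise and decay quickly after a stimulus, whereas Jund is known for steadier expression.

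The sites that define this regulation were looked for in the 250 bases before each mouse start site of RefSeq, because several members are known to act on their own promoters. RefSeq promoter sequences (table build GRCm38.p6) were available for 9 of the 10 members, in 11 windows, and all were placed on GRCm39 by exact match. Promoters of Fos and Jun are shown whole, since they hold the best-known sites of this kind, with the matched letters in capitals.
Fos, chr12:85520414-85520663, plus strand: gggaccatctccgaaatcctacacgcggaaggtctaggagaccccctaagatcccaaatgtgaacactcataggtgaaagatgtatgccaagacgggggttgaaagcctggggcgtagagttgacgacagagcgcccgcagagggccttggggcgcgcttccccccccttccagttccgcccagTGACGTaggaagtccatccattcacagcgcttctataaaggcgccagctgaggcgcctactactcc
Jun, chr4:94940460-94940709, minus strand: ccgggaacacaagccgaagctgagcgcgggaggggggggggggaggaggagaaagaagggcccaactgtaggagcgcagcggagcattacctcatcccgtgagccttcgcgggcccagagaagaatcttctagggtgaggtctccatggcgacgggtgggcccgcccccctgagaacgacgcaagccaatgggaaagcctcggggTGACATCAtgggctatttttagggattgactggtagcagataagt
The capitals in Fos mark the cAMP response element core TGACGT, at positions -66 to -61 from the start. Those in Jun mark the variant response element TGACATCA at -45 to -38. The stretches of 30 bases that hold matches in the other members follow.
Atf3, chr1:190915531-190915560, minus strand: cctggaagctattaatagcattACGTCAgc
Batf, chr12:85733384-85733413, plus strand: tttctaacttgtTGACGTttccgcccatgt
Maff, window 2, chr15:79231680-79231709, plus strand: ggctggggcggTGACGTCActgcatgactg
Maff, window 3, chr15:79232546-79232575, plus strand: ctggagccatgTGACATCAgtgtttgttcc
In Atf3 the core lay on the opposite strand at -8 to -3, at a start within the longer annotated gene, and in Batf it lay at -98 to -93. Maff window 2 held the full cAMP response element TGACGTCA at -29 to -22 and window 3 held TGACATCA at -45 to -38. Both of these Maff windows lie inside the gene interval of the deposited table. Both strands were searched, and the core TGACGT is part of TGACGTCA. Among 32851 RefSeq windows of the same length, 6.47% held TGACGT, 2.93% held TGACATCA and 1.55% held TGACGTCA. The TPA response element TGACTCA, found in 4.46% of all windows, and the CArG box, found in 1.47%, matched in no member window, which says only that these letters are not in these 250 bases. Fosb, Fosl2, Junb, Jund and Maff window 1 held none of the 5 motifs. The Jund window ends 1210 bases before the gene interval of the deposited table and the Fosl2 window lies inside that gene's interval, so for these genes the bases before the deposited start were not searched.

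After DMBA/TPA 8 of the 10 members changed in mouse skin and 7 of the 10 in spiny mouse skin. A call is an adjusted p under 0.05 in edgeR's quasi-likelihood test with Benjamini-Hochberg adjustment over all genes tested. So many genes changed that these counts stand close to the background. In mouse, 61.2% of the 19740 genes tested were called, 25.9% higher and 35.3% lower. Higher genes were 42.4% of the mouse calls with TMM scaling, 30.5% when scaled by the upper quartile and 28.6% by library size, and the members kept 6 higher and 2 lower under each of these. In spiny mouse it was 55.1% of 14833 genes, 28.2% higher and 26.9% lower. Of the members, 6 were higher and 2 lower in mouse, and 5 higher and 2 lower in spiny mouse. The ranges of treated and untreated samples were apart for 8 members in mouse (58.6% of all genes) and for 6 in spiny mouse (50.9% of all genes). The median log2 fold change of the members was 0.74 in mouse and 0.34 in spiny mouse, beside -0.15 and -0.01 over all genes tested.

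Fosl1, Fosl2, Junb and Maff rose in both species, and Atf3 fell in both. Jund rose in mouse and fell in spiny mouse. Jun rose and Fosb fell in mouse, with no call in spiny mouse, and Batf rose in spiny mouse, with no call in mouse. Fos itself passed the test in neither species. An interaction term of species and treatment, fitted over 13656 shared symbols, tested whether the effect differed between the species, and 4 of the 10 members were called. Over all shared symbols 46.1% were called, 21.4% with a positive and 24.7% with a negative difference. The difference is the signed log2 fold change in spiny mouse minus that in mouse. A larger value in spiny mouse therefore need not be a stronger effect. Positive differences made up 46.4% of these calls with TMM scaling, 61.2% when scaled by the upper quartile, 66.2% by library size and 36.3% with no low-count filter. Fosb had the larger value in spiny mouse, and Fosl2, Jun and Jund the smaller. Because skin was sequenced in bulk, fewer cells of a type and less RNA per cell cannot be told apart in any of these values.

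**Figure D1:**
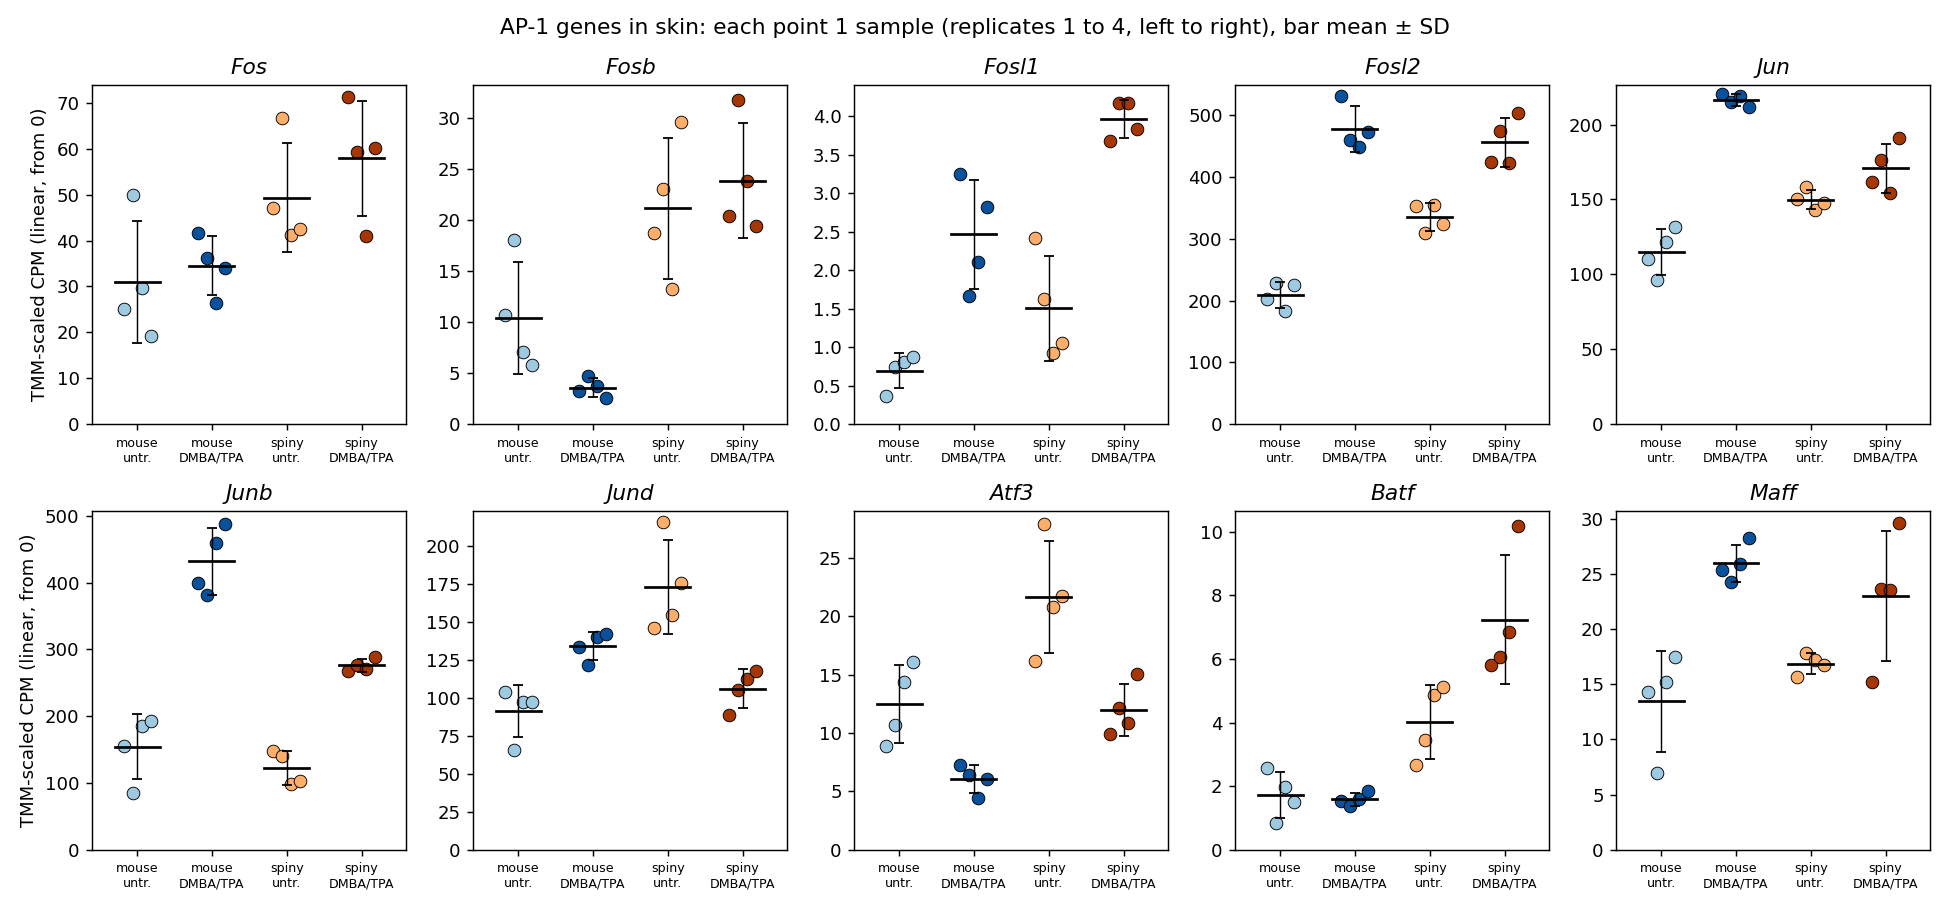
Level of each AP-1 gene (TMM-scaled CPM, linear axis from 0) in the 4 groups, with 1 point per sample in the order of replicates 1 to 4 and bars for mean ± SD (n = 4). Junb and Fosl1 stand higher in all treated samples of both species, Atf3 stands lower in all of them, and Jund stands higher in treated mouse and lower in treated spiny mouse samples.

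Untreated mouse replicate 2 stood apart from the rest of its group and is given before the results that it touches. The name of its count column has a further suffix that no other column has, and the meaning of the suffix is not given. Its root mean square distance from the mean of the other samples of its group was 1.05 on the log2 scale, against 0.31 to 0.51 for the other 15 samples. Summed anagen hair follicle markers reached 2312 CPM in it, with a lowest value in that group of 7.78 CPM. For 5 members (Jun, Junb, Jund, Batf and Maff) it lay below the other 3 untreated mouse samples and for 3 (Fos, Fosb and Fosl2) above them. Without it 9 members were called in mouse and 5 in the species difference, in place of 8 and 4. The background rose as well, to 69.7% of 20009 genes called in mouse and 56.3% of 13701 in the species difference. Total counts were 19608787 to 30198281 per mouse sample and 21143918 to 30561256 per spiny mouse sample, so that 3 counts correspond to 0.102 to 0.158 CPM. Such floors cover counting error only.

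Fos (c-Fos, the founding partner of Jun) had no call in either species. In untreated mouse skin its level was 25.0, 50.0, 29.7 and 19.3 CPM in replicates 1 to 4, and in treated mouse skin 41.7, 36.2, 26.3 and 34.1 CPM. The groups overlapped, and the single high untreated value was that of replicate 2. The log2 fold change was 0.16 (SE 0.27, edgeR quasi-likelihood adjusted p 0.633). Without untreated replicate 2 it was 0.58 with an adjusted p of 0.00909, so that 1 sample decided the call. Spiny mouse values were 47.1, 66.8, 41.2 and 42.6 CPM untreated and 71.3, 59.4, 40.9 and 60.2 CPM treated, and overlapped too. There the log2 fold change was 0.23 (SE 0.19, edgeR adjusted p 0.337). The species difference for Fos was 0.07 (SE 0.36, edgeR adjusted p 0.885).

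Fosb, a Fos protein whose short splice form is known for its long life in stimulated neurons, fell in mouse. Untreated mouse samples had 10.7, 17.98, 7.03 and 5.79 CPM and treated ones 3.20, 4.70, 3.75 and 2.53 CPM. Every treated sample was below every untreated one, and the spread in the untreated group was wide (52.9% of its mean). The log2 fold change was -1.55 (SE 0.36, edgeR adjusted p 0.00511), and -1.06 without untreated replicate 2 (edgeR adjusted p 0.00248). In spiny mouse Fosb stood at 18.7, 23.0, 13.2 and 29.5 CPM untreated and at 20.3, 31.7, 23.8 and 19.4 CPM treated, and the ranges overlapped. Its log2 fold change there was 0.18 (SE 0.24, edgeR adjusted p 0.555). The difference between the species was 1.73 (SE 0.46, edgeR adjusted p 0.00635), and 1.24 without that sample (edgeR adjusted p 0.0128).

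Fosl1 (Fra-1), which lacks the strong activation domain of Fos and is known from migrating and transformed epithelial cells, had the largest fold rise of the members in each species and was the least abundant per length in 3 of the 4 groups. Counts were 9, 17, 22 and 19 fragments in untreated and 62, 38, 58 and 76 in treated mouse samples. As CPM these were 0.366, 0.746, 0.806 and 0.866 untreated, and 3.26, 1.67, 2.11 and 2.82 treated. All treated samples were above all untreated ones, and the change was 3.52-fold (log2 1.82, SE 0.34, edgeR adjusted p 0.00156). Spiny mouse samples had 2.42, 1.63, 0.919 and 1.05 CPM untreated and 3.69, 4.18, 4.17 and 3.84 CPM treated. The treated samples stood close together (6.23% of their mean) and above all untreated ones, a 2.62-fold rise (log2 1.39, SE 0.28, edgeR adjusted p 0.00267). The species difference was -0.42 (SE 0.43, edgeR adjusted p 0.447), so that 0 lay within 1 SE of it and a difference was not resolved. In both annotations exons of Fosl1 overlap those of Ccdc85b on the other strand, and the counting used no strand option, so its counts are uncertain to that extent.

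Fosl2 (Fra-2), the other Fos-related antigen, was the most abundant Fos gene per length in every group and rose in both species. Mouse levels went from 202.7, 227.8, 182.5 and 224.9 CPM to 531.9, 459.7, 448.2 and 473.3 CPM. The groups lay far apart in relation to their spread, with a 2.28-fold change (log2 1.19, SE 0.13, edgeR adjusted p 9.16e-05). In spiny mouse the untreated values of 353.8, 309.2, 354.7 and 323.9 CPM were followed by 423.9, 474.3, 422.9 and 503.5 CPM. No samples overlapped, and the change was 1.36-fold (log2 0.44, SE 0.09, edgeR adjusted p 0.00218). The rise was smaller in spiny mouse by 0.75 on the log2 scale (difference -0.75, SE 0.15, edgeR adjusted p 0.00071).

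Jun (c-Jun), the Jun protein that MAP kinases of the JNK family phosphorylate, separated the species in a similar way. Untreated mouse samples held 110.2, 96.1, 121.9 and 131.9 CPM and treated ones 220.2, 214.8, 218.9 and 211.9 CPM. The treated values differed by little (1.76% of their mean) and lay above all untreated ones, a 1.88-fold rise (log2 0.91, SE 0.12, edgeR adjusted p 0.000222). In spiny mouse the levels were 150.5, 158.4, 143.0 and 147.7 CPM untreated and 161.4, 176.5, 154.2 and 191.3 CPM treated. Only treated replicate 3 overlapped the untreated range, and the log2 fold change was 0.19 (SE 0.08, edgeR adjusted p 0.0615). Without that sample it was 0.24 with an adjusted p of 0.0319. The difference between the species was -0.72 (SE 0.14, edgeR adjusted p 0.000508). Mouse Jun shares exon bases with the antisense gene Junos, and reads from the 2 strands could not be told apart.

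Junb, a Jun protein known to restrain Jun in some settings, is also known to be induced strongly by phorbol ester. It had the highest mean level per length of the members in all 4 groups. Jund stood above it in untreated mouse replicate 2 and in untreated spiny mouse replicates 3 and 4. In mouse Junb went from 155.6, 84.7, 184.8 and 193.0 CPM to 399.4, 380.7, 458.9 and 487.4 CPM. Treated samples were all above the untreated ones, of which replicate 2 was the low one, and the change was 2.79-fold (log2 1.48, SE 0.25, edgeR adjusted p 0.000854). Spiny mouse levels were 147.9, 140.5, 98.4 and 103.4 CPM untreated and 268.1, 276.7, 270.4 and 289.2 CPM treated. Treatment gave a narrow group (3.43% of its mean) above all untreated samples, a 2.25-fold rise (log2 1.17, SE 0.13, edgeR adjusted p 0.000121). The species difference was -0.31 (SE 0.29, edgeR adjusted p 0.398). In the mouse annotation exons of Junb overlap those of Prdx2 on the other strand, so its mouse levels, and the shares and ratios that rest on them, are uncertain to that extent.

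Jund, a Jun protein known to slow proliferation in fibroblasts, moved in opposite directions in the 2 species. Mouse samples had 104.3, 66.1, 97.2 and 97.6 CPM untreated and 133.6, 122.0, 140.6 and 142.0 CPM treated. All treated samples were higher, by 1.47-fold (log2 0.56, SE 0.15, edgeR adjusted p 0.00897), and the log2 fold change was 0.52 without untreated replicate 2 (edgeR adjusted p 0.000122). It was smaller under other scalings, 0.37 with upper-quartile factors and 0.33 by library size (edgeR adjusted p 0.0249 and 0.0425). Spiny mouse samples had 146.4, 216.1, 154.6 and 176.1 CPM untreated and 88.7, 105.2, 112.7 and 118.2 CPM treated. All treated samples were lower, at -0.71 on the log2 scale (SE 0.13, edgeR adjusted p 0.00185). The difference between the species, -1.27 (SE 0.21, edgeR adjusted p 0.00017), was the largest in size of the called differences after that of Fosb. In the mouse annotation Jund overlaps the gene Gm11175 on the other strand, and no overlap was found in the spiny mouse annotation.

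**Figure D2:**
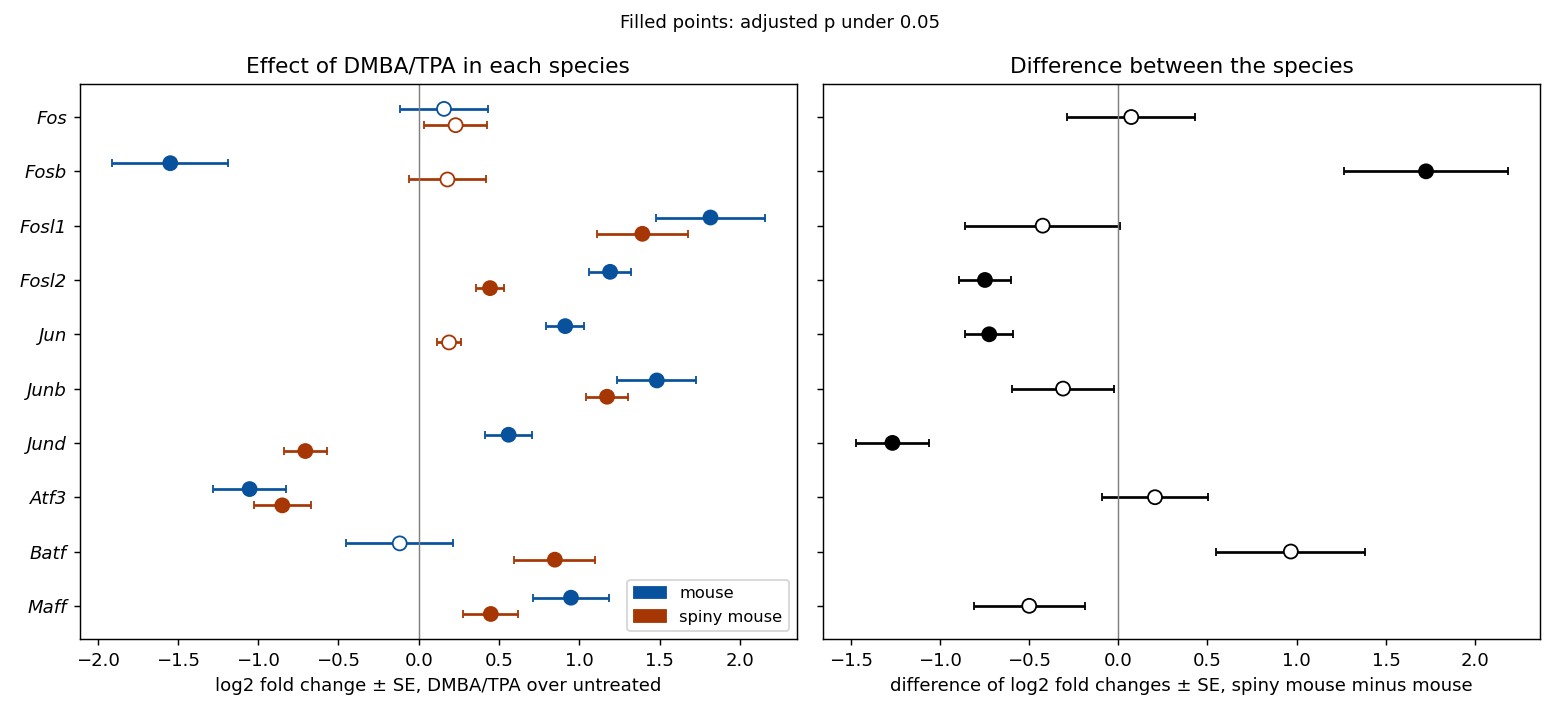
Log2 fold change of DMBA/TPA over untreated skin for each AP-1 gene with its SE (left, mouse and spiny mouse, n = 4 per group) and the difference of the log2 fold changes, spiny mouse minus mouse, with its SE (right). Filled points have an adjusted p under 0.05; the right panel has filled points for Fosb (1.73), Fosl2 (-0.75), Jun (-0.72) and Jund (-1.27).

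Of the other bZIP members, Atf3, a stress-induced factor that often acts as a repressor, fell in both species. In mouse it went from 8.88, 10.7, 14.4 and 16.1 CPM to 7.30, 6.37, 4.44 and 6.05 CPM. The groups did not overlap, and the change was -1.05 on the log2 scale (SE 0.23, edgeR adjusted p 0.00327). In spiny mouse the untreated values of 16.2, 27.9, 20.8 and 21.7 CPM stood above the treated values of 9.96, 12.2, 10.8 and 15.03 CPM. On the log2 scale this was -0.85 (SE 0.18, edgeR adjusted p 0.00329), with a species difference of 0.21 (SE 0.30, edgeR adjusted p 0.598).

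Batf, a partner of Jun proteins best known from T and B lymphocytes, rose in spiny mouse. Levels there were 2.65, 3.45, 4.87 and 5.12 CPM untreated and 5.82, 6.07, 6.84 and 10.2 CPM treated. No treated sample was as low as an untreated one, and the rise was 1.80-fold (log2 0.85, SE 0.25, edgeR adjusted p 0.0179). Mouse levels of 2.57, 0.833, 1.98 and 1.503 CPM untreated and 1.52, 1.36, 1.60 and 1.86 CPM treated overlapped, with -0.12 on the log2 scale (SE 0.33, edgeR adjusted p 0.771). The species difference of 0.97 (SE 0.42, edgeR adjusted p 0.0693) missed the threshold, and passed it without untreated mouse replicate 2, at 1.10 (edgeR adjusted p 0.0178). It also passed with upper-quartile factors, with library-size scaling and with the replicate number as a block, so the call depends on the scaling too. The summed level of T cell markers rose beside Batf in spiny mouse and fell in mouse, where Batf had no call. In spiny mouse 3 of 5 tested were called higher, and their summed level went from 27.7 to 45.3 CPM untreated to 47.7 to 95.3 CPM treated. In mouse 4 of 6 were called lower (Cd3d, Cd3e, Cd3g and Cd2), with summed levels of 17.6 to 28.0 CPM untreated and 9.56 to 11.9 CPM treated. Mouse Lck (log2 -0.04) and Trac (0.27) had no call, and Trac was higher in every treated sample. Of all genes tested, 28.2% were called higher in spiny mouse and 35.3% lower in mouse, and 55.1% and 61.2% were called either way. No T cell marker was at 0 in any whole group, and the part of T cells in the Batf values was not tested.

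Maff, a small Maf protein without an activation domain of its own, rose in both species, but in spiny mouse at the margin of the test. Mouse samples held 14.3, 6.93, 15.2 and 17.5 CPM untreated and 25.4, 24.3, 25.9 and 28.3 CPM treated, with no overlap. The log2 fold change was 0.95 (SE 0.24, edgeR adjusted p 0.00752), and 0.82 without untreated replicate 2 (edgeR adjusted p 2.67e-05). Spiny mouse values were 15.6, 17.9, 17.2 and 16.8 CPM untreated and 15.2, 23.6, 23.6 and 29.6 CPM treated. Treated replicate 1 was below all untreated samples, and the log2 fold change was 0.45 (SE 0.17, edgeR adjusted p 0.0492). This call was lost under 11 of 16 alternative settings, including the omission of any 1 of 7 of the 8 spiny mouse samples. The species difference was -0.50 (SE 0.31, edgeR adjusted p 0.201). Exons of mouse Maff overlap the gene Gm56727 on the other strand.

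The makeup of the family was compared between genes per length of the gene model, as CPM per kilobase. The order of levels was led by Junb in all groups, with means of 67.2 ± 21.4 in untreated and 187.6 ± 21.7 in treated mouse skin and 66.8 ± 13.8 and 150.5 ± 5.15 in spiny mouse skin (CPM per kb, SD, n = 4). In untreated mouse skin the order below Junb was Jund, Jun, Fosl2, Fos, Atf3, Maff, Fosb, Batf and Fosl1. Neighbours in this order overlapped between samples except Jun and Fosl2, Fos and Atf3, and Batf and Fosl1. In treated mouse skin it was Jund, Jun, Fosl2, Fos, Maff, Atf3, Fosl1, Batf and Fosb, and there the only neighbours to overlap were Fosl1 and Batf. Fosl1, the least abundant member before treatment, thus stood at 1.21 ± 0.35 CPM per kb after it, above Fosb with 0.568 ± 0.147.

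In untreated spiny mouse skin Junb was followed by Jund, Jun, Fosl2, Fos, Atf3, Fosb, Maff, Batf and Fosl1. The neighbours that overlapped there were Junb and Jund, Jun and Fosl2, Fosb and Maff, and Maff and Batf. In treated spiny mouse skin Fosl2 (64.2 ± 5.57 CPM per kb) and Jun (54.1 ± 5.23) stood above Jund (37.0 ± 4.46), and Fos, Batf, Atf3, Maff, Fosb and Fosl1 followed. Fosl2 and Jun overlapped, as did Jund and Fos, and each neighbouring pair from Batf to Fosb. Below Junb, which had the highest mean in both groups, Jund thus went from next in the order to below Fosl2 and Jun. The ratio of Junb to Jund per kilobase was 0.920 to 1.58 in untreated and 3.76 to 4.73 in treated spiny mouse samples, and 0.929 to 1.43 and 2.17 to 2.49 in mouse samples.

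Summed over the 10 genes, the level was 162.9 to 231.8 CPM per kb in untreated and 383.7 to 443.6 in treated mouse samples. In spiny mouse it was 245.9 to 306.1 untreated and 341 to 390.9 treated. Junb alone made up 22.6% to 36.2% of that sum in untreated and 42.1% to 47.7% in treated mouse samples, and 21.8% to 29.6% and 40.3% to 43.2% in spiny mouse. The 3 Jun genes together held 65.5% to 79.3% untreated and 78.4% to 83.0% treated in mouse, and 62.1% to 66.0% and 66.4% to 69.0% in spiny mouse. The lowest of these Jun shares in mouse was that of untreated replicate 2, in which Fos alone reached 13.1%. Within the Fos subfamily, the ratio of Fosl2 to Fos per kilobase was 1.11 to 2.84 in untreated and 3.09 to 4.13 in treated mouse samples, which did not overlap. In spiny mouse it was 1.41 to 2.61 and 1.81 to 3.14, which did. Fosb over Fos went from 0.0893 to 0.161 in untreated mouse samples to 0.0279 to 0.0536 in treated ones, and ran over 0.176 to 0.379 and 0.156 to 0.318 in spiny mouse. Levels and shares were not compared by test between the species, whose counts rest on different annotations.

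**Figure D3:**
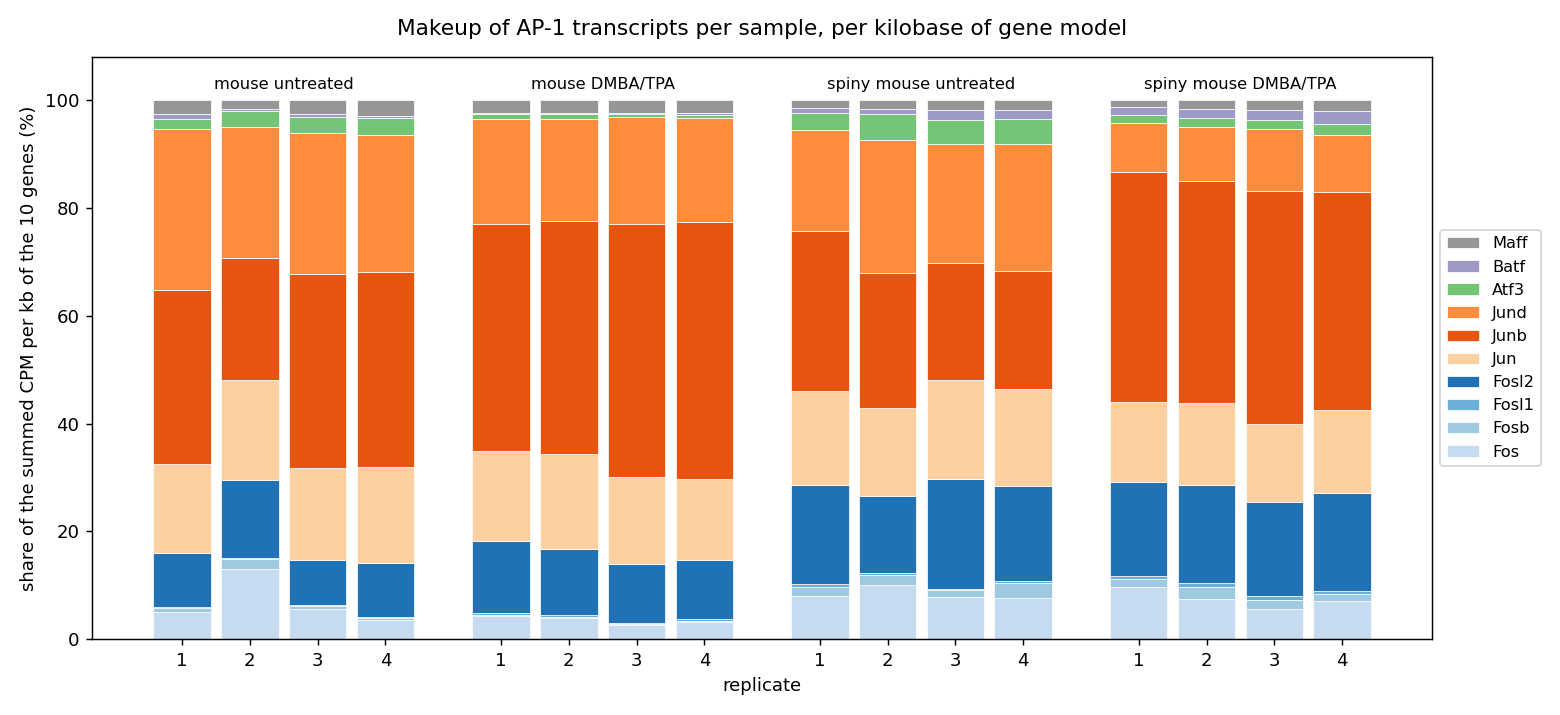
Share of each AP-1 gene in the summed CPM per kilobase of the 10 genes (percent, stacked to 100), with 1 bar per sample. Junb, in dark orange, takes 40.3% to 47.7% in the 8 treated samples and 21.8% to 36.2% in the 8 untreated samples, and Jund, above it, narrows to 9.005% to 11.5% in treated spiny mouse skin.

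The genes around AP-1 were then counted from 4 lists. As background, the share of calls was 61.2% in mouse, 55.1% in spiny mouse and 46.1% in the species difference. Upstream genes in spiny mouse and in the difference did not exceed it. Neither did bZIP factors in mouse and in the difference, nor immediate-early genes in spiny mouse. The other list counts lay above it, but those of AP-1 target genes in mouse and of bZIP factors in spiny mouse only just. No list was tested against it. Among 22 kinases and regulators upstream of AP-1, 14 were higher and 2 lower in mouse (median log2 fold change 0.35), and 8 higher and 3 lower in spiny mouse (median 0.09). Map2k1, which encodes MEK1, the kinase above ERK, rose on the log2 scale by 0.83 in mouse (SE 0.11, edgeR adjusted p 0.000296) and by 0.86 in spiny mouse (SE 0.07, edgeR adjusted p 2.31e-05). Map3k5, the stress kinase ASK1, rose in mouse from 34.5 ± 11.6 to 66.4 ± 1.86 CPM (edgeR adjusted p 0.00284). Rps6ka1, an ERK-activated kinase, rose in both species, from 40.0 ± 3.30 to 68.8 ± 4.19 CPM in mouse and from 47.2 ± 3.96 to 92.0 ± 10.4 CPM in spiny mouse (edgeR adjusted p 0.000142 and 5.95e-05), with a species difference of 0.18 (SE 0.13, edgeR adjusted p 0.277). The genes of the Jun kinases JNK1 and JNK2, Mapk8 and Mapk9, fell in mouse by 0.67 and 0.50 on the log2 scale (edgeR adjusted p 0.00146 and 0.00133). In spiny mouse the falls were those of Map3k1 (-0.60), Map2k7 (-0.26) and Elk1 (-0.26), with edgeR adjusted p-values of 0.000897, 0.0025 and 0.0139. In the species difference 2 of these 22 genes had the larger value in spiny mouse, Mapk8 and Mapk9, and 8 the smaller, led by Map3k5 (-1.16) and Map2k3 (-0.71). The Mapk9 difference was 0.49 with upper-quartile factors and 0.55 by library size (edgeR adjusted p 0.00478 and 0.00259). Without untreated mouse replicate 2 the Mapk9 difference of 0.33 was 0.23 and missed the threshold (edgeR adjusted p 0.102), as it did in 9 of the 16 cases in which 1 sample was left out.

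Other immediate-early genes, which respond to the same signals as Fos and Jun, were counted next. Of 23 tested, 13 were higher and 4 lower in mouse (median 0.75), and 7 higher and 4 lower in spiny mouse (median 0.02). In the species difference 13 were called with a negative and 4 with a positive value. The median difference of the list was -0.67, beside -0.03 over all shared symbols. Egr1, a zinc finger factor induced together with Fos, rose in mouse from 73.97 ± 23.8 to 216.4 ± 16.9 CPM (log2 1.55, SE 0.21, edgeR adjusted p 0.00028), and its species difference was -1.65 (SE 0.24, edgeR adjusted p 6.63e-05). Dusp2, a phosphatase that switches off MAP kinases, rose in mouse from 3.10 ± 1.45 to 37.5 ± 7.16 CPM (log2 3.598, edgeR adjusted p 2.26e-05), with a difference of -3.52 (edgeR adjusted p 0.000242). The 4 falls in mouse were those of Nr4a1 (-1.25), Klf2 (-1.02), Nr4a2 (-0.99) and Dusp1 (-0.89). Socs3, an inhibitor of cytokine signalling, and the nuclear receptor gene Nr4a3 led in spiny mouse, with rises from 23.8 ± 2.74 to 158.0 ± 47.8 CPM and from 6.18 ± 2.14 to 33.8 ± 5.04 CPM (edgeR adjusted p 1.6e-05 and 4.66e-05). Both had a larger value in spiny mouse, by 2.07 and 2.31 (edgeR adjusted p 5.02e-05 and 1.35e-05). The falls in spiny mouse were those of Ccn1 (-0.88), Dusp1 (-0.56), Klf4 (-0.44) and Ppp1r15a (-0.40).

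Among dimer partners and other bZIP factors, 9 of 23 tested were higher and 2 lower in mouse (median 0.17), and 10 of 24 higher and 4 lower in spiny mouse (median 0.19). Cebpb, a factor of macrophages and of differentiating keratinocytes, rose by 1.13 on the log2 scale in mouse and by 0.73 in spiny mouse (edgeR adjusted p 0.00683 and 0.000575), with a species difference of -0.41 (edgeR adjusted p 0.315). Crem, a factor of the cAMP response, moved in opposite directions. It went from 9.16 ± 1.04 to 5.97 ± 0.458 CPM in mouse (edgeR adjusted p 0.00412) and from 10.5 ± 1.23 to 35.1 ± 5.27 CPM in spiny mouse (edgeR adjusted p 1.68e-05). Its difference of 2.36 (SE 0.18, edgeR adjusted p 1.74e-07) was the largest of this list. In spiny mouse Creb5 and Atf5 fell by 1.06 and 0.61 on the log2 scale (edgeR adjusted p 0.00216 and 0.00255), while mouse Atf5 rose (log2 0.75, edgeR adjusted p 0.00372). Batf2 rose in spiny mouse by 1.13 with overlapping groups (edgeR adjusted p 0.0411), a call lost in 7 of the 8 cases in which 1 sample was left out. Atf5 and Creb5 also had the 2 most negative differences, -1.37 and -1.63 (edgeR adjusted p 0.000129 and 0.00125), of 5 called in that direction among 23 tested, where 2 were called in the other.

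The last list held known AP-1 target genes of skin, made up of matrix proteases, epidermal differentiation genes, growth factors and inflammatory genes. In mouse 14 of 24 tested were higher and 1 lower (median 1.07), and in spiny mouse 19 of 24 higher and 1 lower (median 2.62). S100a9, a calcium-binding protein gene of neutrophils and of hyperplastic epidermis, rose from 7.20 ± 3.92 to 583.6 ± 179.1 CPM in mouse and from 7.63 ± 2.78 to 649.4 ± 37.8 CPM in spiny mouse (edgeR adjusted p 4.06e-05 and 3.54e-06). Its partner S100a8 rose too, from 9.23 ± 7.04 to 715.6 ± 199.6 CPM in mouse and from 71.5 ± 13.1 to 1681 ± 176.0 CPM in spiny mouse (edgeR adjusted p 0.000125 and 2.01e-06). Both are also in the neutrophil list, of which 5 of 5 tested genes were higher in mouse and 4 of 5 in spiny mouse. The summed neutrophil markers went from 8.82 to 37.6 CPM untreated to 844.2 to 1749 CPM treated in mouse, with Ly6g at 0 in all treated samples, and from 88.6 to 130.4 to 2239 to 2587 CPM in spiny mouse. S100a8 and S100a9 make up most of these treated sums, which therefore restate their rise. Of the other neutrophil markers, Cxcr2 went from 1.91 ± 1.16 to 13.4 ± 1.29 CPM in mouse and from 0.781 ± 0.265 to 14.9 ± 2.11 CPM in spiny mouse. Csf3r went from 6.05 ± 1.01 to 10.5 ± 3.75 CPM and from 7.43 ± 1.90 to 43.5 ± 5.98 CPM. Mmp8 stood at 0.556 ± 0.220 and 1.43 ± 0.198 CPM in mouse, and at 25.9 ± 5.08 and 26.3 ± 7.78 CPM, with no call, in spiny mouse. The part of neutrophils in the target genes' values was not tested. The collagenase gene Mmp13 rose in spiny mouse (log2 5.29, SE 0.91, edgeR adjusted p 0.00114) with a treated level of 164.4 ± 210.7 CPM, and the log2 fold change was 3.84 without treated replicate 4. The only falls were those of Loricrin in mouse (-0.76, edgeR adjusted p 0.0498) and Odc1 in spiny mouse (-0.54, edgeR adjusted p 0.0121), both with overlapping groups, and the Loricrin call was lost without any 1 of 7 of the 8 mouse samples. In the difference 8 of 23 targets had the larger value in spiny mouse, led by Mmp3 (3.67, edgeR adjusted p 0.000609) and Mmp13 (3.38, edgeR adjusted p 0.0429). It was smaller for 7, led by S100a8 (-1.72, edgeR adjusted p 0.0418) and the cornified envelope gene Ivl (-1.68, edgeR adjusted p 0.00113). Without spiny mouse treated replicate 4 the Mmp13 difference was 1.92 and the S100a8 difference -1.67, and both missed the threshold (edgeR adjusted p 0.171 and 0.0706), while the Mmp3 difference was 2.91 (edgeR adjusted p 0.000591). In all, leaving out 1 sample ended the Mmp13 call in 11 of 16 cases and the S100a8 call in 12 of 16. The Mmp13 difference ran from 1.92 to 4.47 over these cases, 2.66 without untreated and 4.47 without treated mouse replicate 4. Without untreated mouse replicate 3 the S100a8 difference was -2.37 and its log2 fold change in mouse 6.93, in place of 6.27.

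**Figure D4:**
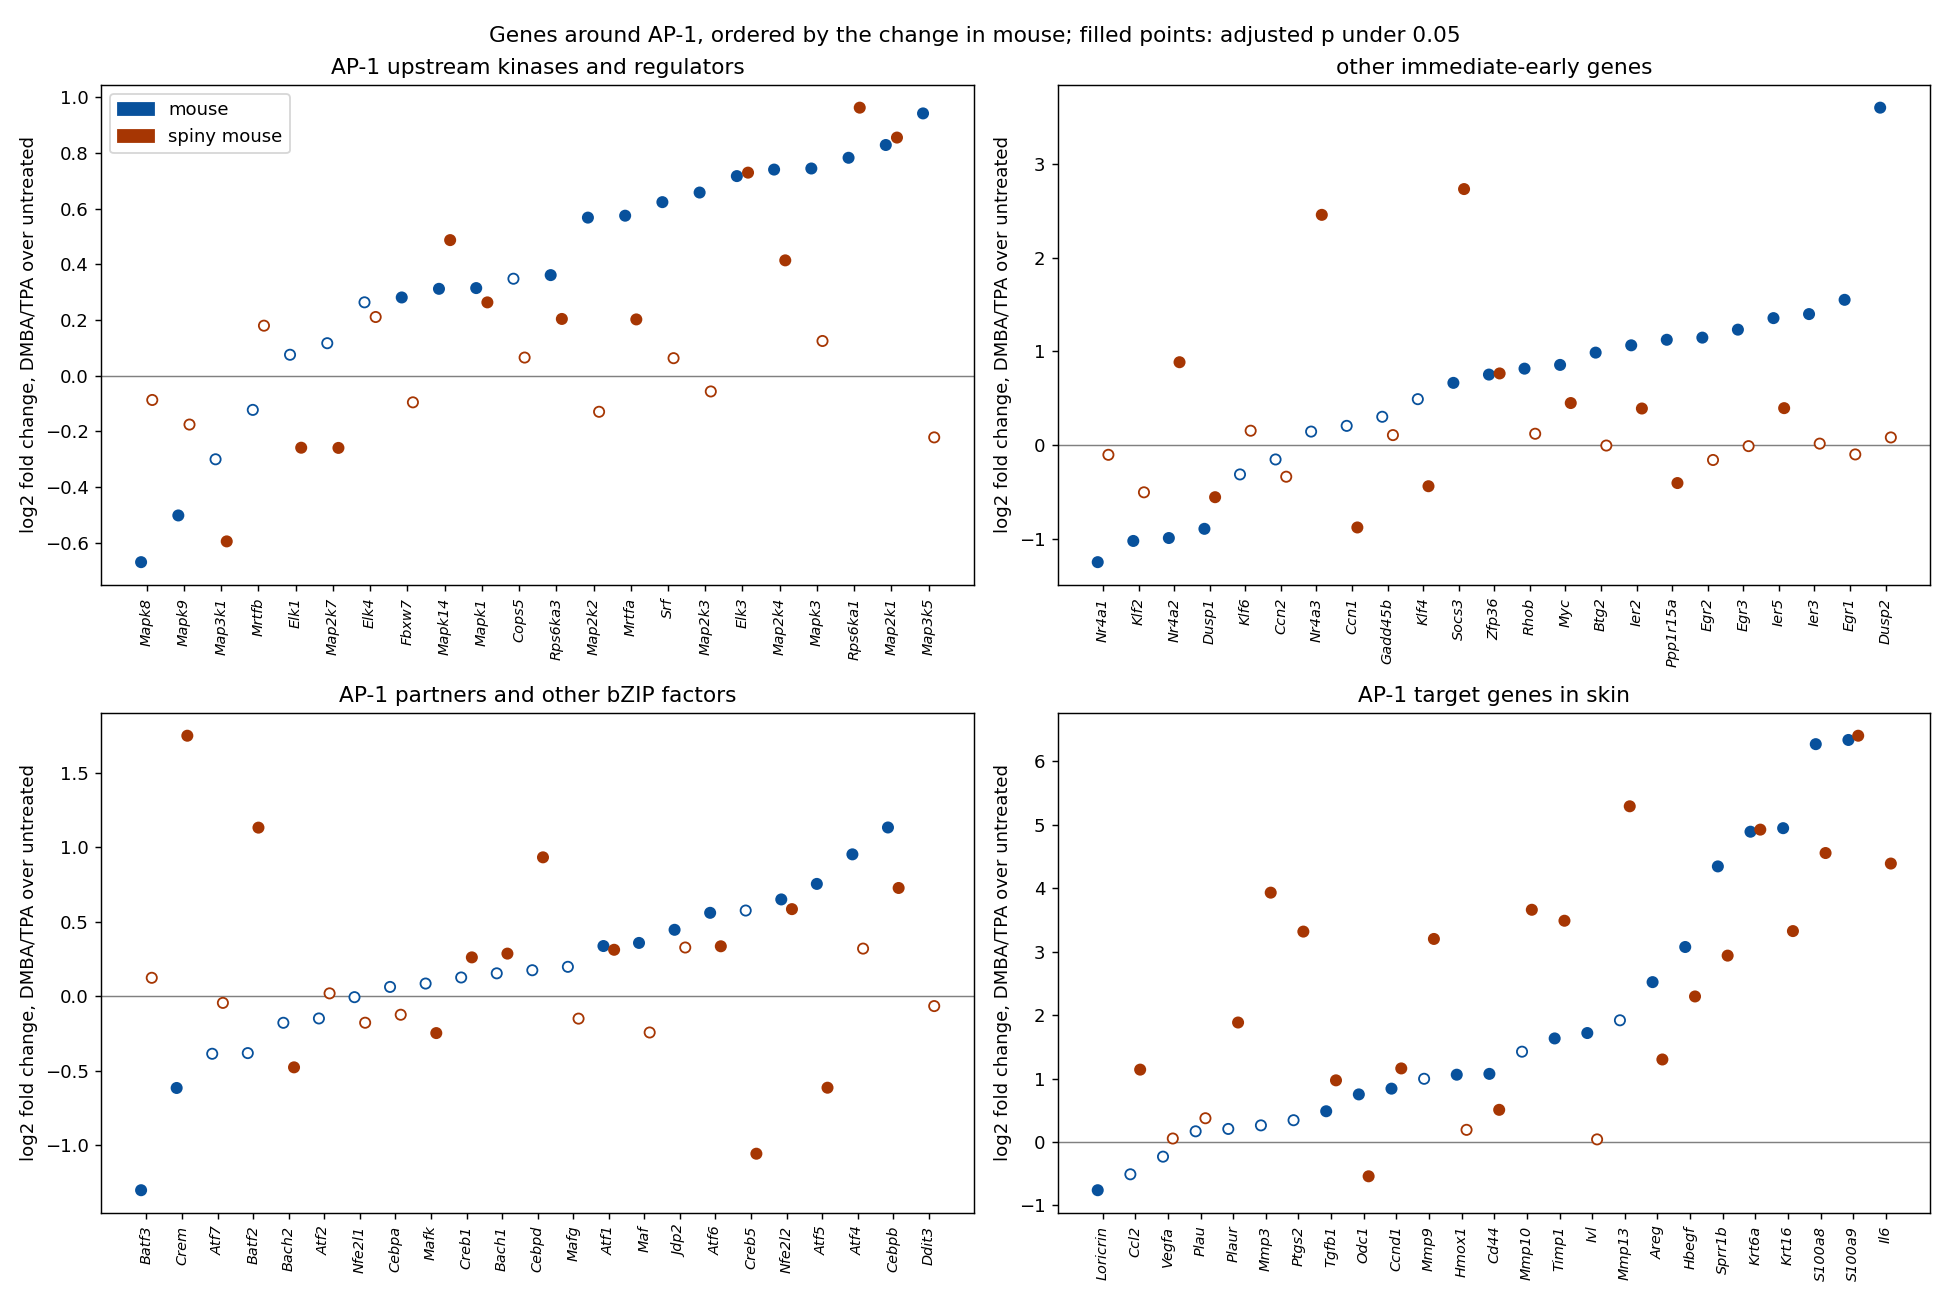
Log2 fold change of DMBA/TPA over untreated skin for the reported genes of the 4 lists around AP-1, ordered by the mouse value, in mouse (blue) and spiny mouse (brown). Filled points have an adjusted p under 0.05; Egr1 and Dusp2 stand above 1 in mouse only, Crem lies on opposite sides of 0, and genes tested in 1 species have 1 point.

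By the similarity of their levels over the 16 samples, centred within each species, the genes nearest to Fos were Tert, Stxbp4 and Ptk2, at root mean square differences of 0.22, 0.24 and 0.25 log2 units. The SD of Fos itself over these samples was 0.36, so the likeness was loose. Nearest to Fosl1 were Etv4, Mthfd2 and Actn1, at 0.31, 0.34 and 0.34 log2 units, with an SD of Fosl1 of 0.88.

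The tissue itself differed between the groups in ways that run beside all of these values. All listed keratinocyte and fibroblast markers were detected in every group, which checks the label. Summed basal keratinocyte markers were 5858 to 8757 CPM in untreated and 13830 to 18510 CPM in treated mouse samples, and 7591 to 8812 and 16380 to 20610 CPM in spiny mouse. Of these, 2 of 5 were called higher and 1 lower in mouse, and 4 of 5 higher in spiny mouse. The mouse sum rose mostly through Krt14 (mean 2129 to 9513 CPM) and Krt5 (2987 to 5262 CPM). Mouse Col17a1 fell (1405 to 757.1 CPM), and Itga6 and Trp63 had no call there. Skeletal muscle markers fell, with 6 of 6 lower in mouse (7586 to 9846 CPM untreated, 1780 to 2337 treated) and 5 of 5 tested lower in spiny mouse (9141 to 11870 and 3080 to 6325). Anagen hair follicle markers were higher for 6 of 6 in mouse (7.78 to 2312 and 20760 to 22880 CPM) and in spiny mouse (1132 to 11610 and 199.2 to 3399 CPM) edgeR called 0 of 6, with 6 of 6 at an unadjusted p under 0.05, 5 of 6 called by DESeq2 and 4 of 6 by limma-voom. Fibroblast markers were lower for 1 of 5 in mouse (8155 to 14180 and 6643 to 10360 CPM), and lower for 4 of 5 and higher for 1 in spiny mouse (4015 to 7094 and 1885 to 2822). Of the remaining lists, suprabasal keratinocyte markers had 2 of 5 higher in mouse and 1 of 5 higher in spiny mouse, and adipocyte markers 2 of 5 and 3 of 5 lower. Macrophage and dendritic cell markers had 3 of 6 lower and 0 higher in mouse, but 2 of 5 tested higher and 1 lower in spiny mouse, and 4 of 5 had a larger value in spiny mouse in the species difference. Their summed levels were 186.6 to 391.1 CPM untreated and 179.5 to 219.9 CPM treated in mouse, and 212.1 to 235.2 and 240.6 to 322.9 CPM in spiny mouse. Endothelial markers had 3 of 5 lower in mouse, and 3 of 5 lower and 1 higher in spiny mouse. Red blood cell markers had 0 of 2 and 0 of 1 called by edgeR, DESeq2 or limma-voom, and 0 at an unadjusted p under 0.05, with Hbb-bs and Hbb-bt at 0 in spiny mouse. No marker of the keratinocyte, muscle, hair follicle and fibroblast lists was at 0 throughout a group, and the part of tissue composition in the AP-1 values was not tested.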

How the data were processed

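The authors deposited raw fragment counts per gene in 2 tables, 1 per species. Per the file headers, featureCounts 2.0.3 counted read pairs with both ends mapped and no strand option, on GRCm39 with the Ensembl 108 annotation for mouse and on AcoCah2 for spiny mouse. Trim Galore and HISAT2 are named in the submitters' processing notes. The libraries were stranded, per the labels. Reads of overlapping or repeated genes are therefore lost or cannot be told apart. Mouse symbols came from GENCODE M39, which named 56236 of 56980 identifiers. Treated columns carry the labels' library names. In the untreated columns the code differs, and species letter plus replicate number gave the sample. For untreated mouse replicate 2 the unexplained suffix was left aside in this assignment.

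Within each species, genes passing filterByExpr entered edgeR's quasi-likelihood test (version 4.0.16, R 4.3.3) with TMM factors. The species by treatment interaction used the effective library sizes of each species' own table. The SE of a log2 fold change is its size over the square root of F, and levels are TMM-scaled CPM, also per kilobase of the deposited gene length (summed exons). The alternatives included limma-voom 3.58.1, DESeq2 1.42.0 as test and for size factors only, scaling by upper quartile or library size, other low-count filters, the replicate number as a block, and leaving out each sample. The fits were tested on simulated data first. A true log2 change of 0.5 was called in 1.59% of cases in mouse, 23.5% in spiny mouse and 7.14% in the species difference. For a change of 1 it was 46%, 74.1% and 50.6%. Far fewer genes were changed there than were called here, so these shares do not carry over. A missing call does not show that a gene stayed the same. Within groups, the chi-square per degree of freedom of all 24 replicate pairs was at least 11.35, so no pair was near-identical and all samples were kept. The untreated groups were not uniform. In untreated spiny mouse it was 34.62 for replicates 1 and 2 and 22.59 for 3 and 4, but 85.11 to 154.7 across these pairs. In untreated mouse it was 132.9 to 165.8 for pairs with replicate 2 and 21.92 to 25.6 for the others.

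The members and the gene lists were chosen with earlier results of these data known. Named were all members and, per list and comparison, the 2 called genes with the largest rise and the 2 with the largest fall at an average log2 CPM of at least 1, with the 3 genes nearest to Fos and to Fosl1. Where a count was 5 or fewer its genes may be named too, a choice made after their values were seen. A further gene that the rule names is counted in its list, but its values are not reported here.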

Additional observations from a re-analysis of the deposited data

Results flagged for a closer look

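These results were set apart because the treatment effect differed between the species in the interaction test of edgeR (quasi-likelihood, Benjamini-Hochberg adjustment). Values are differences of log2 fold changes, spiny mouse minus mouse. Among the members they were 1.73 for Fosb, -0.75 for Fosl2, -0.72 for Jun and -1.27 for Jund. Among bZIP partners they were 2.36 for Crem, -1.37 for Atf5 and -1.63 for Creb5. Upstream genes gave 0.58 for Mapk8, 0.33 for Mapk9, -0.71 for Map2k3 and -1.16 for Map3k5. Immediate-early genes gave 2.31 for Nr4a3, 2.07 for Socs3, -1.65 for Egr1 and -3.52 for Dusp2. Targets gave 3.67 for Mmp3, 3.38 for Mmp13, -1.68 for Ivl and -1.72 for S100a8. No sample of any of the 40 member groups of 4 lay far enough from the others to be set apart by Dixon's criterion, where chance gives about 1 in 20.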

How the results depend on the processing

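Over 110 values of the 6 counts of calls, none moved by over 1.5 times: members called were 8 to 9 in mouse, 6 to 7 in spiny mouse and 4 to 5 in the species difference. Of 550 values of the members 520 kept their direction and side of the threshold, 11 lost a call (all Maff in spiny mouse), 6 gained one and 13 changed sign, all of the last in values without a call. Fos in mouse was -0.07275 with upper-quartile factors, -0.10 under library-size scaling and -0.006325 to 0.58 when 1 sample was left out. Its species difference was -0.02168 with DESeq2 size factors, -0.06649 with no low-count filter and -0.35 to 0.25 when 1 sample was left out. Batf in mouse was 0.02627 with no low-count filter and -0.25 to 0.15 when 1 sample was left out. The cause was not tested. Of 809 values of the other named genes 749 stayed and 60 lost a call. Samples of the same replicate number were not more alike: the mean correlation of same-numbered deviations was 0.01 in mouse and -0.36 in spiny mouse. The spiny mouse values ran from -0.526 to -0.195, beside a mean of 0.119 for unlike numbers. Why they were negative was not tested. With the replicate block 8, 6 and 5 members were called, of 11246, 7418 and 5723 genes in all, Maff losing its call in spiny mouse and Batf gaining one in the difference (0.90, edgeR adjusted p 0.0498). The median of all mouse genes moved by -0.20 (upper-quartile factors), -0.24 (library size) and 0.15 (no low-count filter). For the species difference it moved by -0.10, 0.16, 0.22 and -0.13 with DESeq2 size factors, upper-quartile factors, library size and no filter, so small fold changes are relative to the scaling. Fosl1 counts of 9 to 22 in untreated mouse samples limit its precision.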
